A study of Homo sapiens with 8 samples.

Results

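HIF1A and 9 genes that low oxygen is known to induce through it (VEGFA, CA9, ADM, NDRG1, BNIP3, BNIP3L, EGLN1, EGLN3 and P4HA1) were followed by RNA sequencing in a pancreatic cancer cell line with and without added ELAPOR1. The genes were taken by symbol, which gave 10 rows of the 58870 gene rows in the count table, each symbol matching exactly 1 row. All 8 libraries came from Panc 10.05, an established human pancreatic ductal adenocarcinoma line: 4 were labelled control and 4 carried an ELAPOR1 transgene. The labels give neither the vector or promoter of the transgene, nor whether a clone or a pool of cells was used, nor the oxygen level of the cultures, and no library is labelled as hypoxic. They also do not say whether the 4 libraries of a group were separate cultures, so the p-values below measure the spread between these libraries, which may be technical. ELAPOR1 is a transmembrane protein of endosomes and lysosomes, and the series' title places the study in the question of whether it changes tumour subtype and metabolism.

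HIF-1 is a transcription factor made of an oxygen-regulated alpha subunit, encoded by HIF1A, and a constitutive partner, encoded by ARNT. In the presence of oxygen, prolyl hydroxylases of the EGLN family modify the alpha subunit, the VHL ubiquitin ligase then binds it, and the protein is degraded. When oxygen falls, the subunit accumulates, binds short DNA elements near its target genes and raises genes for angiogenesis, pH control, mitophagy, matrix formation and glycolysis, as well as EGLN1 and EGLN3 of its own degradation pathway. HIF-1 activity is set mostly at the level of the protein, and RNA sequencing measures only the transcripts. Pancreatic ductal adenocarcinoma is known as a poorly perfused and often hypoxic tumour.

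The members did not move as a block. HIF1A, EGLN1 and CA9 were higher in ELAPOR1 libraries, VEGFA, NDRG1 and BNIP3L were lower, ADM, EGLN3 and P4HA1 did not pass the test, and BNIP3 had no counts in any library. The called differences had sizes of 0.33 to 0.67 on the log2 scale, in either direction, and the median of the 9 tested members was a log2 fold change of 0.10 (all tested genes: 0.0009). Called means an adjusted p below 0.05 (edgeR quasi-likelihood test with Benjamini-Hochberg adjustment over all 13860 tested genes). By that rule 44.7% of all tested genes were called, 22.6% as higher and 22.1% as lower, so calls were common throughout the transcriptome and 6 of 9 members, 3 in each direction, is read against that share. The groups did not overlap in normalised counts for these 6 members, as for 39.2% of all tested genes.

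The core of the HIF binding element is ACGTG or GCGTG, and stretches around these letters are shown here to let the members' promoters be compared with how their transcripts moved. Promoters (300 bases, from 250 before the transcription start to 50 after it, RefSeq, GRCh38.p14) were at hand for 7 members: HIF1A, CA9, ADM, BNIP3, EGLN1, EGLN3 and P4HA1. Both cores were searched on both strands, and a palindromic CACGTG holds ACGTG on each strand. Each line is written 5′ to 3′ on the gene's own strand, with the core, or its reverse complement, in capitals.
CA9, chr9:35673885-35673939, plus strand: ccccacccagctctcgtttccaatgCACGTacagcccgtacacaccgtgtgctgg
EGLN1, chr1:231422271-231422325, minus strand: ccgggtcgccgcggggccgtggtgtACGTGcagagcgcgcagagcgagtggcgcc
HIF1A, chr14:61695284-61695338, plus strand: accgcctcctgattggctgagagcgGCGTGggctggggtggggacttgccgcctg
P4HA1, chr10:73096923-73096977, minus strand: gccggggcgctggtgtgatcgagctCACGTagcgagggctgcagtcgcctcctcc
ADM, chr11:10304947-10305001, plus strand: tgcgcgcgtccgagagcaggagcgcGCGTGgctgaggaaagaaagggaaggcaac
BNIP3, chr10:131981998-131982091, minus strand: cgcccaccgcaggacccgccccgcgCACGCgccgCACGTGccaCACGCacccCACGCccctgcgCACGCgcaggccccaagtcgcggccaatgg
Positions are counted from the RefSeq transcription start used. The first base of the core lay at -18 in CA9, -13 in EGLN1, -204 in HIF1A, -86 in P4HA1 and -101 in ADM. BNIP3 had 6 matches between -143 and -104, and its window holds CACGC repeatedly beside a CACGTG. EGLN3 (chr14:33951025-33951324), and the promoter at a further start of HIF1A, had no match in this window, which says only that these letters are not there. The starts used for EGLN1 and EGLN3 lie well inside the gene spans given below. Other starts of these genes were not searched.

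The cores were found in 48.4% of all 35116 promoters of the same length and in 70.6% of the 9913 promoters of tested genes. Among the hypoxia-induced lists without the members, 46 of 51 promoters (90.2%) held a core, and of these 46 genes 15 were called higher and 13 lower. Members with a core included genes called higher (CA9, EGLN1, HIF1A), genes not called (ADM, P4HA1) and a gene with no counts (BNIP3). No promoter was at hand for VEGFA, NDRG1 and BNIP3L, the members called lower. The absence of a lower gene among the members with a core is therefore no result. Over tested genes, 1803 of 7002 with a core were called higher and 1570 lower, against 677 and 663 of the 2911 without one. A match is a run of letters and was not read as a bound site.

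The transgene was checked first. ELAPOR1, listed in the table under its older symbol KIAA1324, had 0.150 ± 0.107 CPM (counts per 1e6, scaled by TMM; SD, n = 4) in control and 427 ± 2.28 CPM in ELAPOR1 libraries. In units of 1e6 counts, library totals averaged 17.2 ± 0.688 for controls and 15.5 ± 1.52 with ELAPOR1 (SD, n = 4 in both; exact permutation test, two-sided, p = 0.143, where the smallest possible is 0.0286). Of the epithelial markers, 6 of 6 were above 10 counts, with summed levels of 11930 to 13200 CPM in control and 11160 to 11510 CPM in ELAPOR1 libraries. KRT8 and KRT18, with control means of 5360 and 4690 CPM, made up most of the sum. Both were called lower (log2 fold changes -0.162 and -0.357). KRT7 (0.315), KRT19 (0.246) and CDH1 (0.111) were called higher, and EPCAM was not called. Of the markers of other cells, DCN and LUM (fibroblasts), CDH5 (endothelium), and CD3E (leukocytes) had no counts, and 1 of 5, 1 of 3 and 1 of 4 of these lists were above 10 counts. Summed CPM in control and ELAPOR1 libraries were 2.95 to 4.32 and 2.71 to 3.19 for fibroblasts, and 1.61 to 1.95 and 0.576 to 0.865 for endothelium. For leukocytes, where CD68, which also marks lysosomes, made up nearly all of the sum, they were 81.8 to 87.9 and 72.6 to 78.8. The part of these shifts in the results below was not tested. In bulk RNA, fewer cells that express a gene and less of its RNA per cell cannot be told apart.

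HIF1A, the oxygen-regulated subunit itself, was higher with ELAPOR1. Its gene (ENSG00000100644.17; GRCh38 chr14:61695513-61748259, plus strand, GENCODE release 29) had 233, 228, 207 and 208 CPM in the 4 control libraries and 296, 285, 300 and 302 CPM in the 4 ELAPOR1 libraries. Every ELAPOR1 library stood above every control library, and the controls fell into a higher and a lower pair. The log2 fold change was 0.43 with a standard error of 0.0355 (95% interval 0.36 to 0.51; edgeR adjusted p = 8.7e-12), a rise of 35.2% from 219 ± 13.5 to 296 ± 7.37 CPM (SD, n = 4). A change at least this large, in either direction, was seen in 16% of all tested genes. HIF1A-AS1 and AL137129.1, which overlap HIF1A exons, had no counts.

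**Figure D1:**
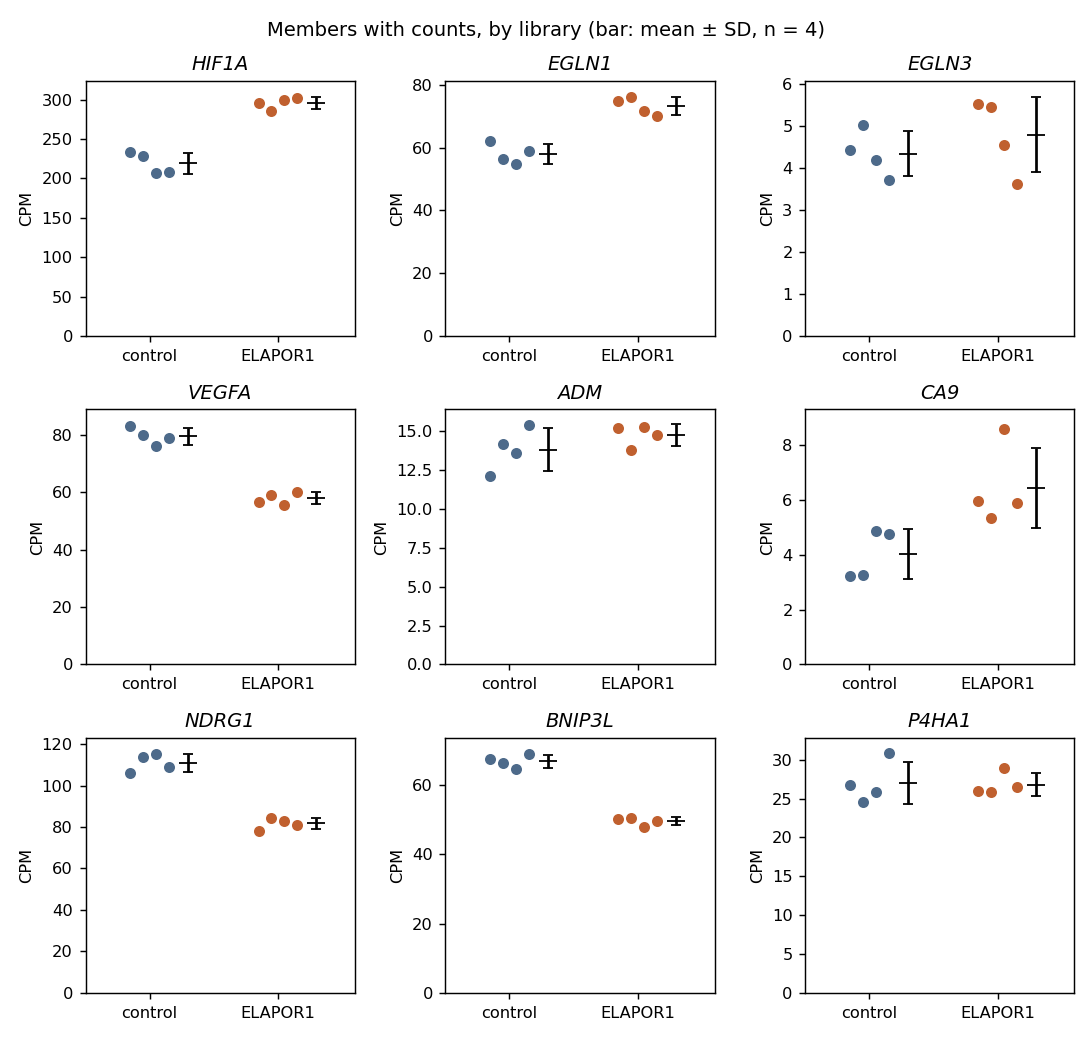
CPM (TMM-scaled counts per 1e6, linear axes from 0) of the 9 members with counts, by library, in 4 control (blue) and 4 ELAPOR1 (orange) libraries, with mean ± SD. HIF1A, EGLN1 and CA9 lie higher and VEGFA, NDRG1 and BNIP3L lower in all ELAPOR1 libraries, while EGLN3, ADM and P4HA1 overlap.

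EGLN1 encodes PHD2, the main prolyl hydroxylase that marks HIF alpha subunits for degradation, and is itself a HIF target. It (ENSG00000135766.8; chr1:231363751-231425044, minus strand) had 62.1, 56.5, 54.7 and 59.1 CPM in control libraries and 74.9, 76.3, 71.6 and 70.1 CPM in ELAPOR1 libraries. The groups did not overlap, and the rise was 26% (log2 fold change 0.33, standard error 0.047, 95% interval 0.24 to 0.43; edgeR adjusted p = 4.2e-07). The transcripts of the subunit and of the enzyme that marks it both rose.

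EGLN3 encodes PHD3, a related hydroxylase that hypoxia is known to induce strongly in many cells. In these cells it (ENSG00000129521.13; chr14:33924231-34462774, minus strand) was scarce, with 4.44, 5.02, 4.20 and 3.72 CPM in control and 5.52, 5.46, 4.54 and 3.63 CPM in ELAPOR1 libraries, from 61 to 90 counts each. The groups overlapped, with the lowest value of all in an ELAPOR1 library. The log2 fold change of 0.14 had an interval from -0.19 to 0.46 (edgeR adjusted p = 0.520), so a change of the size seen in EGLN1 lay within it. With 1 library left out it ranged from 0.06 (without ELAPOR1 replicate 1) to 0.26 (without ELAPOR1 replicate 4). Per kilobase of longest transcript, the control levels of the hydroxylases were 17.5 CPM for EGLN2, 8.18 CPM for EGLN1 and 1.52 CPM for EGLN3. EGLN2, which encodes PHD1, went from 68.3 ± 2.84 to 73.0 ± 2.71 CPM (SD, n = 4) and was not called (log2 fold change 0.09, edgeR adjusted p = 0.0816). With scaling by total count it was called (adjusted p = 0.032).

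None of the other HIF subunits was called higher. EPAS1, which encodes the HIF-2 alpha subunit, had 62.7 ± 2.73 CPM in control and 63.1 ± 2.78 CPM in ELAPOR1 libraries (SD, n = 4), and the interval of its log2 fold change was -0.09 to 0.10 (edgeR adjusted p = 0.931). Its direction turned under upper-quartile scaling, while that of HIF1A did not. Per kilobase of longest transcript, HIF1A stood at 55.3 CPM in control and 74.8 CPM in ELAPOR1 libraries, against 12.1 and 12.2 CPM for EPAS1. ARNT, the shared partner, was lower with ELAPOR1 (55.8 ± 3.90 against 50.8 ± 2.71 CPM, log2 fold change -0.14, edgeR adjusted p = 0.0372). That call was lost in 7 of 17 other settings, among them leaving out control replicate 1, 2 or 3 or ELAPOR1 replicate 2 (adjusted p = 0.17 without the last). HIF3A had no counts, and ARNT2 had at most 1.

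Among the 14 other tested genes of the HIF regulators, 3 were called higher and 5 lower, with a median log2 fold change of 0.01. Thus 57.1% were called, against 44.7% of all tested genes. The higher genes were HIF1AN (factor inhibiting HIF, the asparagine hydroxylase that blocks coactivator binding) and the coactivators CREBBP and EP300. HIF1AN had 96.4, 94.8, 89.5 and 88.8 CPM in control and 106, 97.6, 112 and 107 CPM in ELAPOR1 libraries (log2 fold change 0.19, standard error 0.0422, edgeR adjusted p = 3.3e-04). CREBBP rose from 71.0 ± 4.64 to 86.1 ± 1.97 CPM (SD, n = 4; log2 fold change 0.28, edgeR adjusted p = 4.8e-06). EP300 was called at 0.19 (adjusted p = 0.00856), a call that was lost in 2 of 17 settings (adjusted p = 0.0639 without ELAPOR1 replicate 2, and 0.0548 at a value of 0.12 with GC and length trends removed).

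The lower regulators were, beside ARNT, 2 elongins, CITED2 and SIAH2. ELOC, the elongin C adaptor of the VHL ligase, fell from 148 ± 6.43 to 128 ± 1.48 CPM (SD, n = 4; log2 fold change -0.21, edgeR adjusted p = 1.4e-05). ELOB, the elongin B adaptor, was called at -0.15 (adjusted p = 0.0193) but stood at -0.009 once trends with GC content and length were removed (adjusted p = 0.887), and lost the call without control replicate 2 or 3 or ELAPOR1 replicate 2, 3 or 4 (adjusted p = 0.0869 at most). SIAH2, a ubiquitin ligase that targets prolyl hydroxylases, fell by 0.19 on the log2 scale (edgeR adjusted p = 0.00957). CITED2, a HIF target that competes for the coactivators, was called at -0.17 (adjusted p = 0.0195), with an adjusted p of 0.109 without ELAPOR1 replicate 1. VHL, CUL2, RBX1, EGLN2, EPAS1 and SIAH1 were not called.

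**Figure D2:**
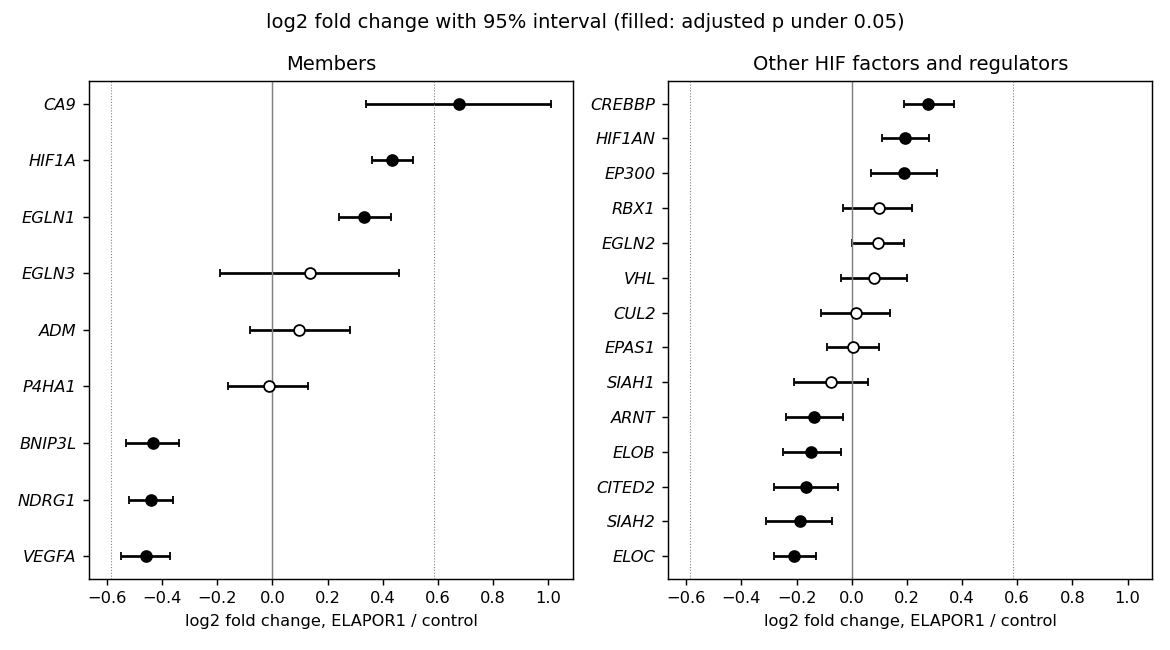
Log2 fold change of ELAPOR1 over control with its 95% interval for the 9 tested members (left) and the 14 other tested HIF factors and regulators (right). Filled points were called at an adjusted p under 0.05, open points were not, and dotted lines mark a 1.5-fold change. The interval of CA9 is the widest of the 6 called members, and no member was called against a 1.5-fold change.

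VEGFA encodes the main angiogenic ligand that hypoxia induces, and it was lower with ELAPOR1. It (ENSG00000112715.21; chr6:43770184-43786487, plus strand) had 83.2, 79.8, 76.2 and 78.8 CPM in control libraries and 56.5, 59.1, 55.7 and 60.2 CPM in ELAPOR1 libraries. All 4 ELAPOR1 libraries were below all controls. It fell by 0.46 on the log2 scale (standard error 0.0445, 95% interval -0.55 to -0.37; edgeR adjusted p = 2.1e-10), a change of -27.2%. HIF1A and VEGFA therefore moved in opposite directions in the same libraries.

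ADM encodes adrenomedullin, a vasodilator peptide and a common hypoxia marker. It (ENSG00000148926.10; chr11:10304680-10307397, plus strand) had 12.1, 14.2, 13.6 and 15.4 CPM in control and 15.2, 13.8, 15.3 and 14.8 CPM in ELAPOR1 libraries. The groups overlapped, and the highest value was a control library. The log2 fold change was 0.10 (95% interval -0.08 to 0.28; edgeR adjusted p = 0.383). It was 0.03 without control replicate 1 and 0.15 without control replicate 4.

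The other ligands and receptors of these 2 pathways were given by a list of 14 genes that includes VEGFA and ADM. Of 9 tested, 3 were called higher and 3 lower (66.7% called, against 44.7% of all tested genes). The median was -0.28 on the log2 scale. VEGFB, a ligand related to VEGFA, had 64.2, 71.0, 74.1 and 76.5 CPM in control and 41.1, 44.8, 45.4 and 47.8 CPM in ELAPOR1 libraries (log2 fold change -0.67, standard error 0.0544; edgeR adjusted p = 5.5e-12). NRP1, the neuropilin co-receptor for VEGFA, rose from 24.1 ± 0.957 to 42.8 ± 1.70 CPM (SD, n = 4; log2 fold change 0.83, standard error 0.0592; edgeR adjusted p = 1.4e-13). For both genes the groups did not overlap.

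RAMP1, a receptor partner in the calcitonin and adrenomedullin receptor family, fell from 48.9 ± 3.42 to 36.6 ± 1.24 CPM (SD, n = 4; log2 fold change -0.42, edgeR adjusted p = 1.6e-07). With GC and length trends removed it stood at -0.24 (adjusted p = 6.8e-05). VEGFC, the lymphangiogenic ligand, was called higher at 0.35 (adjusted p = 0.0153), and lost the call without control replicate 1 (adjusted p = 0.0502) or ELAPOR1 replicate 3 (adjusted p = 0.0612). NRP2 was called at 0.75 (adjusted p = 0.0454) but lost the call in 8 of 16 settings, including without control replicate 2 or 3 or ELAPOR1 replicate 2, 3 or 4 (adjusted p = 0.18 at most) and with the replicate block (adjusted p = 0.0628). The signalling receptors of VEGFA were near absent: FLT1 had no counts and KDR between 0 and 3. RAMP2 and RAMP3, which make the adrenomedullin receptors with CALCRL, also had no counts.

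CA9 encodes carbonic anhydrase IX, a membrane enzyme that helps hypoxic cells export acid. It (ENSG00000107159.13; chr9:35673856-35681159, plus strand) had 3.22, 3.25, 4.85 and 4.76 CPM in control libraries and 5.95, 5.32, 8.57 and 5.88 CPM in ELAPOR1 libraries, which are 55 to 81 and 80 to 119 counts. The groups did not overlap, with control replicates 3 and 4 close to the lower ELAPOR1 libraries. The mean went from 4.02 ± 0.910 to 6.43 ± 1.45 CPM (SD, n = 4), a log2 fold change of 0.67 with a standard error of 0.166 (95% interval 0.34 to 1.01; edgeR adjusted p = 0.00125). ELAPOR1 replicate 3 is the highest library, and without it the call held (adjusted p = 0.0151) at a log2 fold change of 0.52.

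CA9 exons overlap those of ARHGEF39 on the opposite strand, and the use of strand in counting is not given in the sources used here. ARHGEF39 had 395 to 523 counts per library and was not called (log2 fold change -0.08, edgeR adjusted p = 0.319). Without strand, reads of the 2 genes could not be told apart where they overlap. CA12, a further hypoxia-linked carbonic anhydrase, had no counts. CA2, a cytosolic relative, fell from 15.8 ± 0.365 to 12.6 ± 0.653 CPM (SD, n = 4; log2 fold change -0.33, edgeR adjusted p = 0.00134).

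NDRG1 encodes a stress-response protein linked to differentiation and to suppression of metastasis, and is among the genes most widely used as hypoxia markers. It (ENSG00000104419.14; chr8:133237171-133302022, minus strand) had 106, 114, 115 and 109 CPM in control libraries and 78.3, 84.4, 83.1 and 81.0 CPM in ELAPOR1 libraries. The groups were well apart. It fell by 0.44 on the log2 scale (standard error 0.0404, 95% interval -0.52 to -0.36; edgeR adjusted p = 5.6e-11). Of the 20 tested genes flanking NDRG1, over 13929 kb, 8 were also called lower and 2 higher. Their median was -0.13 on the log2 scale, and 22.1% of all tested genes were called lower. The medians around the other 9 members lay between -0.12 and 0.10.

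The other tested NDRG genes moved in different directions. NDRG3 fell from 61.1 ± 2.95 to 50.2 ± 0.656 CPM (SD, n = 4; log2 fold change -0.28, edgeR adjusted p = 9.2e-06). NDRG4 was scarce and rose from 1.13 ± 0.133 to 2.37 ± 0.822 CPM (log2 fold change 1.06, edgeR adjusted p = 0.00184). ELAPOR1 replicate 1 held 57 counts of it, against 26 to 34 in the other ELAPOR1 libraries. Without that replicate the call held (edgeR adjusted p = 0.03), and with 1 library left out the log2 fold change was 0.80 at the lowest.

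BNIP3 and BNIP3L encode related receptors of the outer mitochondrial membrane that recruit the autophagy machinery to mitochondria, and both are known HIF targets. BNIP3 (ENSG00000176171.11; chr10:131966455-131982013, minus strand) had 0 counts in all 8 libraries, where 3 counts, the upper limit that a count of 0 allows, correspond to 0.165 CPM in the deepest library and 0.218 CPM in the shallowest. These limits cover counting error only. The table also lists 39 BNIP3 pseudogenes, which together held 0 to 18.42 counts per library, so few reads were assigned to them in its place. Of the 10 other protein-coding genes within 1 Mb of BNIP3, 5 passed the filter on low counts, among them PPP2R2D with 597 to 781 counts per library. TCERG1L, DPYSL4, NKX6-2 and CFAP46, also within that distance, had no counts.

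BNIP3L, also called NIX, was well expressed and lower with ELAPOR1. It (ENSG00000104765.16; chr8:26382898-26505636, plus strand) had 67.5, 66.3, 64.7 and 69.1 CPM in control libraries and 50.3, 50.4, 48.0 and 49.6 CPM in ELAPOR1 libraries. The groups were well apart, with the smallest spread of the 6 called members relative to their means in the ELAPOR1 group. It fell by 0.43 on the log2 scale (standard error 0.0456, 95% interval -0.53 to -0.34; edgeR adjusted p = 1.3e-09).

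Of the 8 genes listed as mitophagy receptors and regulators, 6 were tested, of which 4 were called lower and 0 higher. Their median was -0.22 on the log2 scale. Beside BNIP3L these were PHB2, an inner-membrane receptor, FKBP8, an outer-membrane receptor, and PINK1, the kinase that marks damaged mitochondria. PHB2 fell by 0.30 (adjusted p = 1.4e-07), PINK1 by 0.23 (adjusted p = 2.4e-04) and FKBP8 by 0.21 (edgeR adjusted p = 1.0e-06) on the log2 scale. With GC and length trends removed, FKBP8 stood at -0.10 (adjusted p = 0.00173). FUNDC1 and BCL2L13 were not called (log2 fold changes -0.01 and -0.05). The list is small and 22.1% of all tested genes were called lower, so the count is given as a description.

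P4HA1 encodes the catalytic alpha subunit of collagen prolyl 4-hydroxylase, which hypoxia is known to induce for matrix production. It (ENSG00000122884.12; chr10:73007217-73096974, minus strand) had 26.8, 24.6, 25.8 and 30.9 CPM in control and 26, 25.8, 28.9 and 26.5 CPM in ELAPOR1 libraries. The groups overlapped throughout, and the means were 27.0 ± 2.73 and 26.8 ± 1.44 CPM (SD, n = 4). The interval of the log2 fold change was -0.16 to 0.13 (edgeR adjusted p = 0.902), which does not reach the size seen in the 6 called members.

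Of the 8 tested genes of collagen hydroxylation, P4HA1 included, 1 was called higher and 3 lower (50% called, against 44.7% of all tested genes). CRTAP, a partner of the collagen prolyl 3-hydroxylase, fell from 116 ± 3.68 to 85.4 ± 4.75 CPM (SD, n = 4; log2 fold change -0.44, edgeR adjusted p = 1.1e-10). P4HB, the beta subunit that pairs with P4HA1, fell from 610 ± 31.0 to 543 ± 9.51 CPM (log2 fold change -0.17, edgeR adjusted p = 3.9e-05). PLOD2, a hypoxia-induced lysyl hydroxylase, fell by 0.30 on the log2 scale (adjusted p = 0.00649). PLOD3 was called higher at 0.09 (adjusted p = 0.037) and lost the call in 9 of 17 settings, including without control replicate 1, 2 or 3 or ELAPOR1 replicate 3 or 4 (adjusted p = 0.138 at most) and with the replicate block (adjusted p = 0.0524). P4HA2, the other common alpha subunit, was not called (log2 fold change 0.11, adjusted p = 0.221).

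The wider set of genes known to be induced by hypoxia also held genes called in both directions. Without the members, 59 genes of both hypoxia-induced lists were tested, of which 19 were called higher and 16 lower (59.3% called, against 44.7% of all tested genes), and their median log2 fold change was 0.01. Of 24 tested genes of glucose uptake and glycolysis, 13 were called higher and 4 lower, with a median of 0.18. Of 35 other hypoxia-induced genes tested, 6 were called higher and 12 lower, with a median of -0.08. Over all tested genes, 22.6% were called higher and 22.1% lower. The difference between the 2 lists was not tested.

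**Figure D3:**
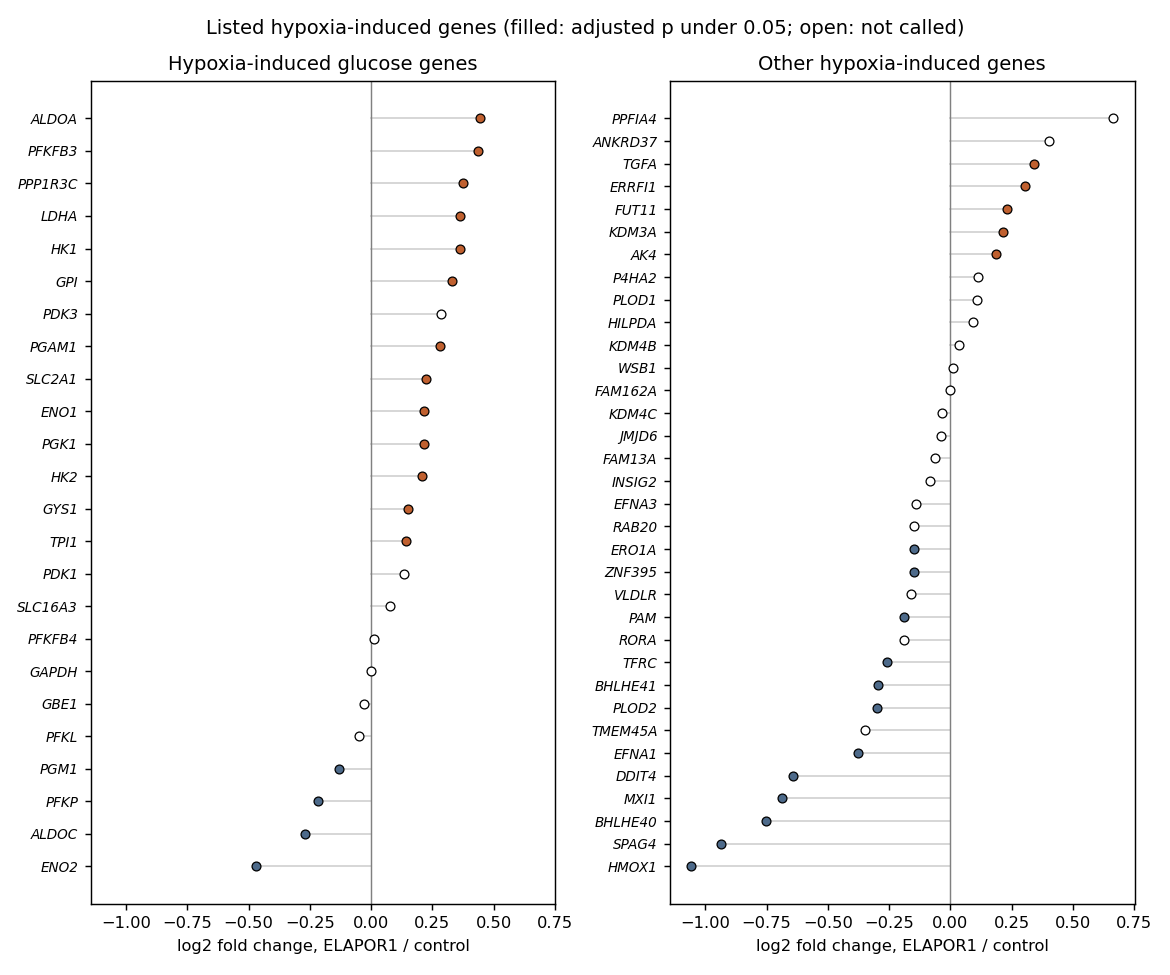
Log2 fold change of ELAPOR1 over control for tested genes of 2 lists, hypoxia-induced glucose genes (left) and other hypoxia-induced genes (right), ordered by value. Filled points were called at an adjusted p under 0.05 and open points were not. Of the genes drawn, 13 on the left were called higher and 4 lower, and 5 on the right were called higher and 12 lower.

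LDHA, ALDOA and PFKFB3 rose by 0.36 to 0.44 on the log2 scale, beside 0.43 for HIF1A. LDHA, lactate dehydrogenase A, had 804, 839, 838 and 841 CPM in control libraries and 831 ± 17.5 CPM on average, against 1070 ± 9.35 CPM in ELAPOR1 libraries (SD, n = 4; log2 fold change 0.36, edgeR adjusted p = 1.6e-13). ALDOA, aldolase A, rose from 482 ± 18.6 to 656 ± 13.1 CPM (log2 fold change 0.44, edgeR adjusted p = 2.2e-14). Of the 20 tested genes flanking ALDOA, 11 were also called higher and 3 lower, where 22.6% of all tested genes were called higher. Of the 20 flanking PPP1R3C, also called higher, 9 were called higher and 1 lower. Around MXI1, which was itself called lower, 9 of 20 were called higher and 3 lower. PFKFB3, which makes the activator of phosphofructokinase, rose from 19.3 ± 1.20 to 26.1 ± 1.99 CPM (log2 fold change 0.44, edgeR adjusted p = 7.0e-06).

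PPP1R3C, a glycogen-targeting subunit, was called at 0.38 (adjusted p = 0.0358) but lost the call in 8 of 17 settings, including without control replicate 2 or 3 or ELAPOR1 replicate 2 or 3 (adjusted p = 0.189 at most) and with the replicate block (adjusted p = 0.0548). SLC2A1, the GLUT1 glucose transporter, named here after its values were seen, rose from 52.2 ± 3.74 to 61.1 ± 2.45 CPM (SD, n = 4; log2 fold change 0.22, edgeR adjusted p = 5.1e-04). GAPDH, likewise named after its values were seen, stood at 4400 ± 156 and 4390 ± 72.2 CPM (adjusted p = 0.982). The 4 glucose genes called lower were ENO2, ALDOC, PFKP and PGM1, and ENO2, the neuronal enolase, fell from 18.4 ± 0.804 to 13.3 ± 0.525 CPM (log2 fold change -0.47, edgeR adjusted p = 9.2e-06). ENO1, the common enolase, was among the 13 called higher.

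Of the other hypoxia-induced genes, HMOX1, BHLHE40, MXI1 and SPAG4 were lower with ELAPOR1. HMOX1, heme oxygenase 1, had 21.3, 19.4, 18 and 18.3 CPM in control and 9.02, 9.65, 9.36 and 9 CPM in ELAPOR1 libraries (log2 fold change -1.06, edgeR adjusted p = 4.7e-12). BHLHE40, a transcriptional repressor, fell from 56.1 ± 1.81 to 33.3 ± 1.65 CPM (log2 fold change -0.75, edgeR adjusted p = 8.4e-14). MXI1, a MYC antagonist, fell from 31.3 ± 1.27 to 19.4 ± 1.78 CPM (log2 fold change -0.69, edgeR adjusted p = 5.6e-10). SPAG4 was scarce and fell from 3 ± 0.147 to 1.58 ± 0.506 CPM (log2 fold change -0.94, edgeR adjusted p = 0.00137).

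Several textbook hypoxia targets were close to absent from both groups. Of the 44 other hypoxia-induced genes, 9 did not pass the filter on low counts (LOX, LOXL2, ANGPTL4, STC1, STC2, IGFBP3, CA12, CXCR4 and NDUFA4L2), and IGFBP3, CA12 and CXCR4 had no counts at all. BNIP3 was thus 1 of several genes of the response without measurable transcript.

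The genes whose pattern over the 8 libraries lay nearest to that of HIF1A were not on the hypoxia lists. By root mean square difference in centred log2(CPM + 1), the nearest of 10702 genes were COX20, an assembly factor of cytochrome c oxidase (0.036), POLR2A, the largest subunit of RNA polymerase II (0.039), and DHX9, an RNA helicase (0.041). Each had a log2 fold change of 0.41. Of the 100 hypoxia list genes, the nearest were PFKFB3 (0.067), TGFA (0.068) and LDHA (0.079). Over 8 libraries of 2 groups, genes with an equal difference between the groups come out near each other by this measure.

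The member calls were stable to the processing settings run, except for the test against a minimum fold. In 17 other settings (scaling, test, filter, replicate block, GC and length, each library left out) the same 6 members were called with the same direction. Against a 1.5-fold change (glmTreat), 0 members were called. The estimate for CA9 was above 1.5-fold and those of the other 5 called members below it. Of the calls over all genes, 84.2% were smaller than 1.5-fold, and their median size was 0.28 on the log2 scale.

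**Figure D4:**
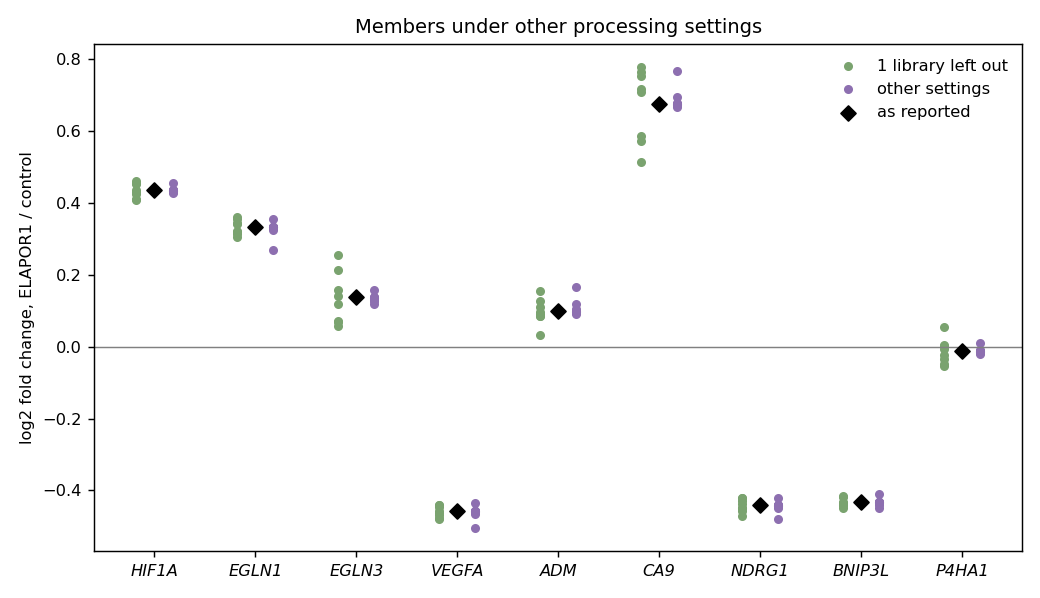
Log2 fold change of each tested member as reported (black diamonds), with 1 library left out (green) and under the other settings (purple). The 6 called members stay on 1 side of 0 in all of them, CA9 ranges most widely, and P4HA1 crosses 0.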

How the data were processed

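RNA from 8 Panc 10.05 libraries was extracted with TRIzol and sequenced on an Illumina NextSeq, per the labels' protocols. The authors deposited RSEM expected counts per gene, unscaled, of which 15.0% of nonzero values were not whole (tolerance 1e-06). The counts of the 10 members were whole. cutadapt, STAR, RSEM and DESeq2, and the build hg38, are named in the submitters' processing notes. Versions, annotation release and use of strand are not given in the sources used here.

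Counts were rounded, filtered with filterByExpr, scaled with TMM and tested with the robust quasi-likelihood test of edgeR 4.0.16 in R 4.3.3 (two-sided, no covariate, Benjamini-Hochberg over 13860 genes). A standard error is the log2 fold change divided by the square root of F. Intervals are 95%. Coordinates are from GENCODE release 29, which held 58597 of the identifiers.

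The alternatives were DESeq2 1.42.0 size factors and Wald test, limma-voom (limma 3.58.1), total-count and upper-quartile scaling, other filters and thresholds, a replicate block, removal of GC and length trends, and each library left out. The procedure was run on simulated data, with the same dispersion for every gene and far fewer changed genes than were called here. That run therefore does not show how the procedure performs when so many genes differ. Plots used matplotlib 3.10.9.

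The members and gene lists were chosen with earlier results of these data known. Named are all members, ELAPOR1, genes of the lists with up to 19 genes, the 5 called genes of each larger list with the largest change (mean of at least 1 CPM in a group), and the 3 genes nearest to HIF1A (mean of at least 5 CPM) overall and in the lists. A gene of the other hypoxia-induced list enters its counts and median but is not reported or drawn here.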

Additional observations from a re-analysis of the deposited data

Results flagged for a closer look

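In 104 groups of 4 libraries, a library was singled out where its distance to the nearest other library as a share of the group's range exceeded Dixon's 95% critical value. Chance flags about 5% of groups, or 5.2 here, and 7 were found, none of them in a member. In ELAPOR1 libraries, ARNT was at 46.7 CPM in replicate 2 (the others at 52.1 to 52.2), and ELOB at 66.3 CPM in replicate 1 (55.8 to 57.5). In control replicate 1, ELOC was at 138 CPM (150 to 152), LDHA at 804 CPM (838 to 841) and PLOD2 at 15.4 CPM (13.2 to 13.5). SIAH1 was at 26.1 CPM in control replicate 2 (28.6 to 29). NDRG3 was at 56.7 CPM in control replicate 4 (62.1 to 63.1).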

How the results depend on the processing

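With each library left out in turn, 5557 to 6316 genes were called in all, 6 members in every case, 31 to 35 genes of the hypoxia-induced lists, and the difference in library totals, ELAPOR1 minus control, was -2.19 to -1.03 in units of 1e6 counts. The other settings gave 4682 to 6475 genes, 6 members and 29 to 38 list genes, except the test against a 1.5-fold change. That test called 215 genes (124 higher, 91 lower), 0 members (0 also at an unadjusted p under 0.05) and 3 list genes, since it asks for more than a difference from 0. The values it no longer called were 0.435 (HIF1A), -0.458 (VEGFA), 0.675 (CA9), -0.441 (NDRG1), -0.432 (BNIP3L) and 0.333 (EGLN1). Values near 0 changed sign. P4HA1 was 0.009 with total-count scaling and -0.055 to 0.056 with a library left out. EPAS1 was -0.002 with upper-quartile scaling, -0.049 with GC and length trends removed, and -0.022 to 0.028 with a library left out. CUL2 was -0.023 with the trends removed and -0.019 to 0.068 with a library left out. The causes were not tested. Same-numbered libraries did not deviate together (correlations -0.0353, -0.00696, 0.0203 and -0.0379). With the replicate block 5926 genes were called, 5878 of them among the 6193, with 6 members and 33 list genes, and PPP1R3C (adjusted p = 0.0548), NRP2 (0.0628) and PLOD3 (0.0524) lost their calls. Depth limits the scarce members: EGLN3 and CA9 rest on 55 to 119 counts per library.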
